A study of Saccharomyces cerevisiae BY4741 with 6 samples.

Results

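The 36 genes described here serve to attach amino acids to transfer RNAs in *Saccharomyces cerevisiae*, 20 for the cytosol and 16 for the mitochondria. They were part of 5449 genes with a probe set on the array, and they do not include every gene of this kind. They were taken by name: 33 encode aminoacyl-tRNA synthetases or their subunits, *ARC1* a protein bound to a pair of synthetases, and *GTF1* and *HER2* subunits of a mitochondrial amidotransferase. Each had 1 probe set in the array's annotation. The cells were of the haploid laboratory strain BY4741, grown overnight in the rich medium YPD, diluted into fresh medium, grown on to exponential phase, and then kept for 4 h at 30 °C either without the drug (3 cultures) or with 10 mg/mL neomycin sulfate (3 cultures). Each culture gave 1 Affymetrix Yeast Genome 2.0 array, and all values compare 3 neomycin arrays with 3 untreated arrays of the same strain, medium and time. Values are log2 GCRMA signals, so that a step of 1 is a doubling and a step of −1 a halving. Signals of different probe sets were not read as relative amounts of transcript, since each probe set has its own response. Ratios between genes were followed only as changes from their mean on the untreated arrays. The means of genes that the strain lacks served only as a mark of low signal.

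An aminoacyl-tRNA synthetase joins 1 kind of amino acid to the transfer RNAs that carry it to the ribosome. The enzymes form the structural classes I and II, which differ in the fold of the catalytic site. Yeast makes proteins both in the cytosol and in mitochondria, and most amino acids have a nuclear gene for the cytosolic enzyme and another for the mitochondrial one, whereas *ALA1*, *GRS1*, *HTS1* and *VAS1* each encode both forms from different translation starts. Transfer RNA that is left uncharged activates the kinase Gcn2, through which translation of the transcription factor Gcn4 rises, and neomycin is an aminoglycoside, a class of antibiotics that bind the decoding site of bacterial ribosomes. The comparison asked how the transcripts of the cytosolic and of the mitochondrial charging genes stood after 4 h of the drug.

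With neomycin, signals of the mitochondrial charging genes lay somewhat below those of untreated cells and signals of the cytosolic genes closer to them, and no member passed the test. The median log2 fold change (mean of the neomycin arrays minus mean of the untreated arrays) was −0.22 over the 16 mitochondrial members and −0.11 over the 20 cytosolic members, against −0.05 over all 5449 genes. All 16 mitochondrial members and 19 of the 20 cytosolic members had a value below 0, as did 62.1% of all genes. The value farthest below 0 was that of *ISM1*, the mitochondrial isoleucyl-tRNA synthetase, whose mean neomycin signal was 0.729 of the untreated one (ratio of the linear means). Among the cytosolic genes it was that of *MES1*, the methionyl-tRNA synthetase, with a ratio of 0.843. At the other end stood *KRS1*, the cytosolic lysyl-tRNA synthetase, with a ratio of 1.01.

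Of the 36 members 0 were called higher and 0 lower by limma (Benjamini-Hochberg adjusted p under 0.05 over all genes), where 0.422% of all genes were higher and 0.0918% lower. With an unadjusted p under 0.05 there were 0 higher members, against 5.05% of all genes, and 3 lower ones, *ISM1*, *MST1* and *MSR1*, all mitochondrial (8.33% of the members against 8.33% of all genes). By the criteria of the study's methods, a ratio from 1.7 upwards or from 0.6 downwards together with a Bayesian p up to 0.05, 0 members were induced and 0 repressed, where 1.45% and 0.367% of all genes were. Another count takes the genes for which the groups did not overlap. No member stood higher on all neomycin arrays than on all untreated arrays, against 5.58% of all genes. Lower on all of them were 8 of the 16 mitochondrial members and 2 of the 20 cytosolic members, against 12.8% of all genes. With the deposited scaling the cytosolic share, 10%, was thus near that of all genes and the mitochondrial share, 50%, above it. Since the members were chosen with earlier results of these arrays known and their values move together between arrays, these shares are a description without a test.

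**Figure D1:**
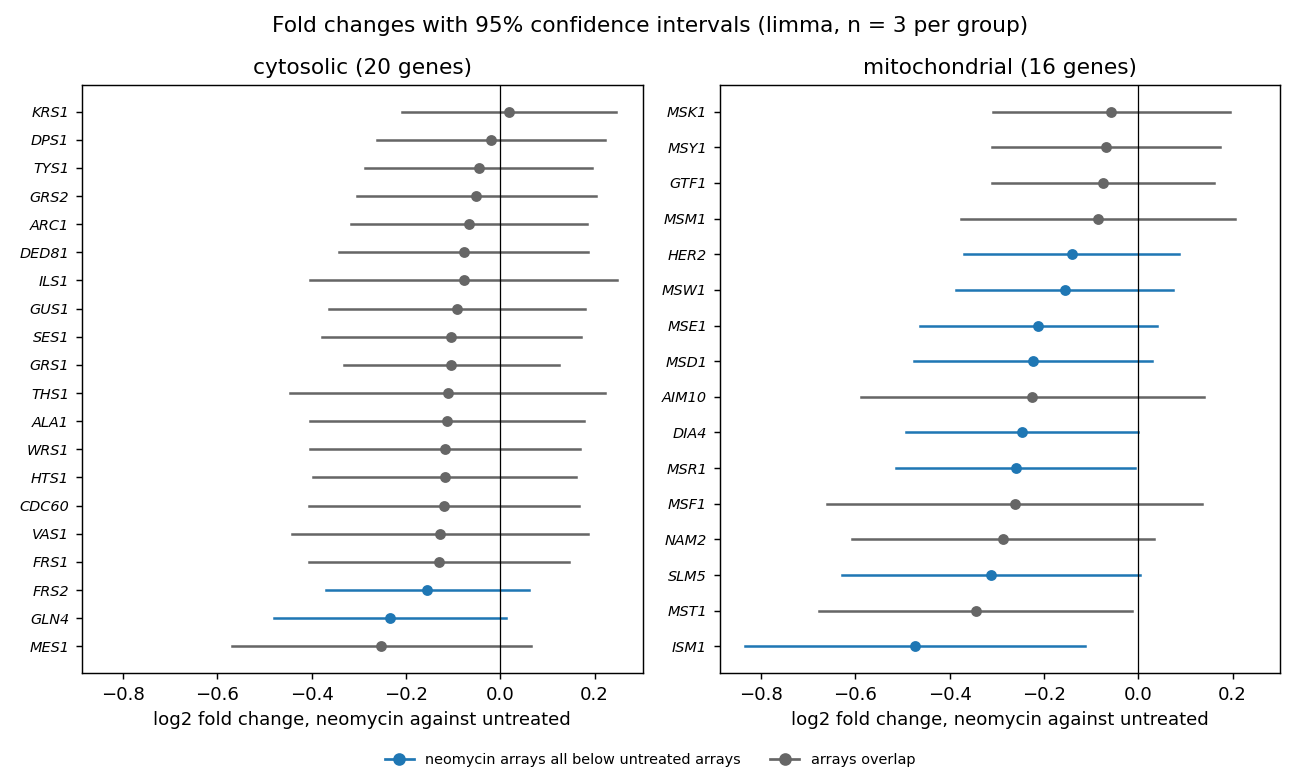
Log2 fold change of each gene (points) with limma's 95% confidence interval (lines), on the x axis, for the 20 cytosolic and 16 mitochondrial genes, ordered by value, with genes whose neomycin arrays all lay below the untreated arrays in blue. The mitochondrial points run from −0.47 to −0.06 and the cytosolic points from −0.25 to 0.02, and the interval lies wholly below 0 only for *ISM1*, *MST1* and *MSR1*.

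The arrays did not all show the same picture. Relative to the untreated mean of each gene, the median of the cytosolic members was −0.25 on neomycin replicate 1, 0.06 on replicate 2 and −0.12 on replicate 3, and −0.03, −0.04 and 0.06 on the untreated arrays. On neomycin replicate 1 all 20 cytosolic members were below their untreated mean, 19 of them below each untreated array. On replicate 2 there were 16 above it, 8 of them above each untreated array. The neomycin medians thus lay on both sides of the untreated mean, that of replicate 2 within the range of the untreated arrays, and the cytosolic median moved to −0.03 without neomycin replicate 1, to −0.18 without neomycin replicate 2 and to −0.06 without untreated replicate 3. The medians of the mitochondrial members were −0.20, −0.12 and −0.35 on the neomycin arrays, in the order of their replicates, and 0.00, −0.03 and 0.05 on the untreated arrays, without overlap. Below their untreated mean lay 15, 14 and 14 of the 16. Over all genes the medians of the neomycin arrays were −0.11, 0.03 and −0.05, in the same order as those of the cytosolic members, and the part of this shift in their values was not tested. With each array centred on its own median the cytosolic members gave −0.07 and the mitochondrial members −0.19, and 2 and 5 were lower on all neomycin arrays, where 9.43% of all genes were lower and 8.75% higher. After a further quantile normalisation these counts were 4 of the 20 cytosolic and 4 of the 16 mitochondrial members, against 10.1% of all genes lower and 8.50% higher. The contrast between the compartments in these shares was thus smaller with that scaling, while the medians were −0.09 and −0.19.

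**Figure D2:**
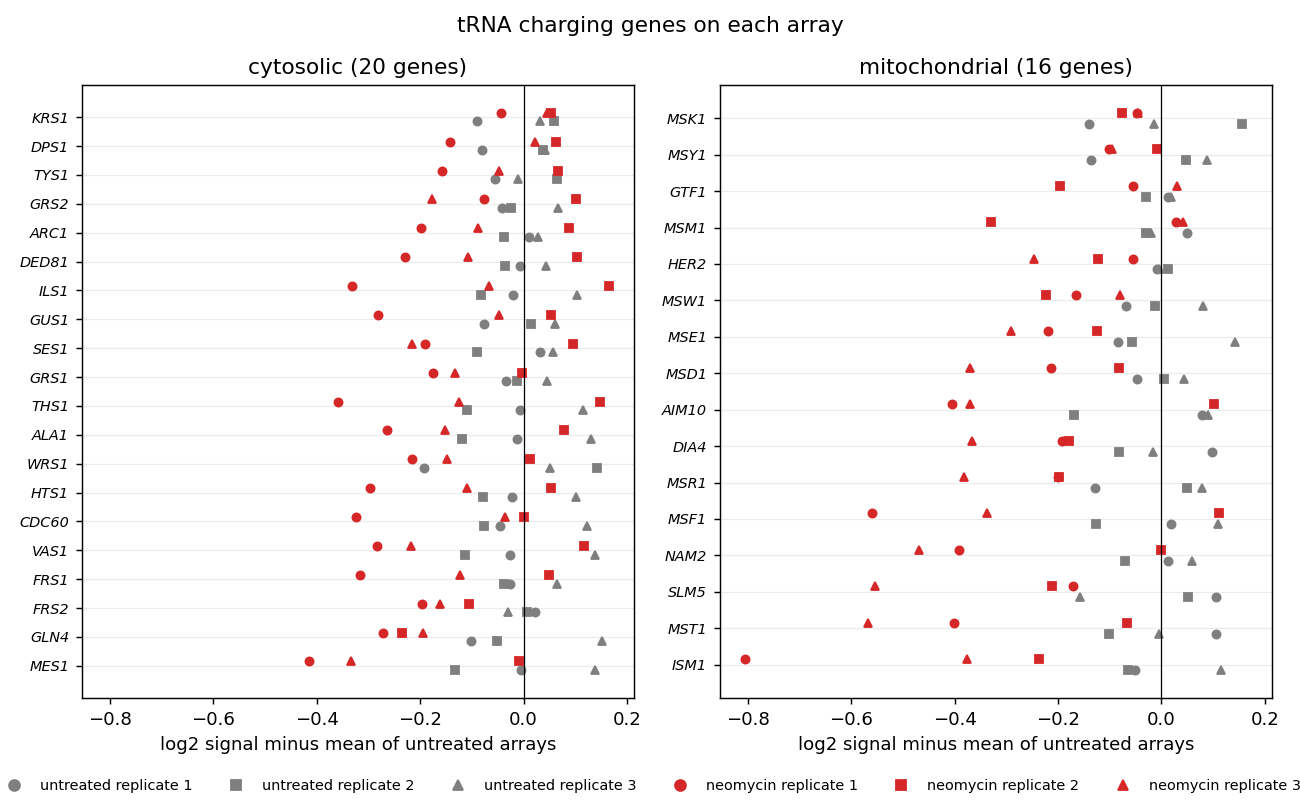
Log2 signal of each gene on each array minus its mean over the untreated arrays (x axis), with untreated arrays in grey, neomycin arrays in red and the replicate given by the symbol. Neomycin replicate 2 (squares) lies at or right of 0 for most of the 20 cytosolic genes, while for the mitochondrial genes the red symbols lie mostly left of the grey ones.

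The difference between both compartments was also uneven. The cytosolic median minus the mitochondrial median was 0.12 on the log2 scale for the fold changes. Taken array by array it was −0.05 on neomycin replicate 1, 0.18 on replicate 2 and 0.23 on replicate 3, and −0.03 to 0.01 on the untreated arrays. On neomycin replicate 1 both medians thus lay close together, and on the other neomycin arrays the mitochondrial one was the lower. Leaving out neomycin replicate 1 gave 0.16 and leaving out neomycin replicate 3 gave 0.09. The compartments also differed in signal level. Mean signals over the arrays ran from 7.55 to 9.18 for the mitochondrial members. For the 14 cytosolic synthetase genes not counted as encoding both forms (without *GRS2*) they ran from 10.9 to 12.6. The part of signal level in the difference was not tested.

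**Figure D3:**
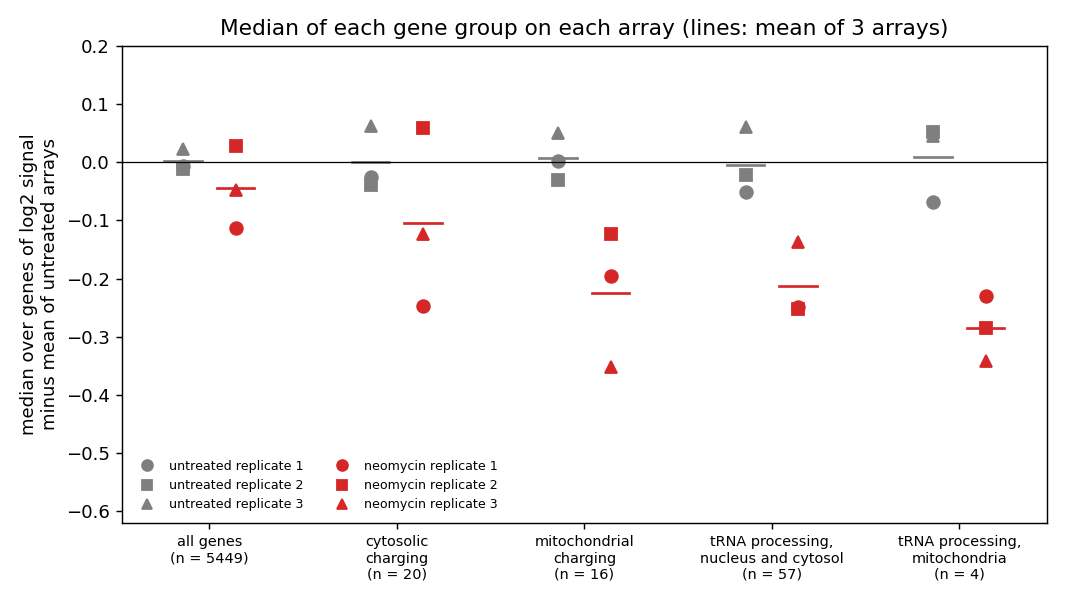
Median over the genes of a group of the log2 signal minus the untreated mean (y axis) on each untreated array (grey) and neomycin array (red), with lines at the mean of 3 arrays, for all genes, both groups of charging genes and the genes of tRNA processing and modification. The cytosolic group reaches from −0.25 to 0.06 on the neomycin arrays, and the mitochondrial group from −0.35 to −0.12.

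Among the mitochondrial enzymes, *ISM1* read 7.84, 7.83 and 8.01 on the untreated arrays and 7.09, 7.66 and 7.52 on the neomycin arrays (replicates 1, 2 and 3 in each group). All treated cultures lay below all untreated ones, replicate 1 the farthest (log2 fold change −0.47, SE 0.16, adjusted p = 0.277, limma, 95% confidence interval −0.83 to −0.11). *MST1*, the mitochondrial threonyl-tRNA synthetase, had signals of 8.40, 8.19 and 8.29 on the untreated arrays and 7.89, 8.22 and 7.72 on the neomycin arrays. Replicate 2 lay between the untreated values, so that the groups overlapped (log2 fold change −0.34, SE 0.14, adjusted p = 0.364). The signals of *MSR1*, the mitochondrial arginyl-tRNA synthetase, were 8.15, 8.32 and 8.35 on the untreated arrays and 8.07, 8.08 and 7.89 on the neomycin arrays. They did not overlap (log2 fold change −0.26, SE 0.11, adjusted p = 0.366).
*SLM5*, which encodes the mitochondrial asparaginyl-tRNA synthetase, gave 8.31, 8.26 and 8.05 on the untreated arrays and 8.03, 7.99 and 7.65 on the neomycin arrays. Treated replicate 1 came within a small step of the lowest untreated array, and the groups were apart (log2 fold change −0.31, SE 0.14, adjusted p = 0.376). For *DIA4*, the mitochondrial seryl-tRNA synthetase, the values were 7.77, 7.59 and 7.65 on the untreated arrays and 7.48, 7.49 and 7.30 on the neomycin arrays. All neomycin arrays lay lower (log2 fold change −0.25, SE 0.11, adjusted p = 0.373). *NAM2*, the mitochondrial leucyl-tRNA synthetase, which also helps to splice introns of mitochondrial transcripts, gave 8.33, 8.25 and 8.38 on the untreated arrays and 7.93, 8.32 and 7.85 on the neomycin arrays. Replicate 2 was within the untreated range and the other treated arrays below it (log2 fold change −0.29, SE 0.14, adjusted p = 0.42).
The other mitochondrial members whose neomycin arrays all lay below the untreated ones were *MSD1* and *MSE1*, for aspartate and glutamate, *MSW1*, for tryptophan, and *HER2*, with log2 fold changes of −0.22, −0.21, −0.16 and −0.14. *MSF1*, for phenylalanine, and *AIM10*, a probable prolyl-tRNA synthetase, had values of −0.26 and −0.22, with replicate 2 at or above the highest untreated array in both. The mitochondrial synthetase genes closest to 0 were *MSM1*, *MSY1* and *MSK1*, for methionine, tyrosine and lysine, with −0.09, −0.07 and −0.06. The product of *MSK1* also takes part in bringing a cytosolic lysine tRNA into mitochondria.

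Yeast mitochondria have no glutaminyl-tRNA synthetase of their own. Glutamate is first placed on the glutamine tRNA and then converted by an amidotransferase made of the products of *HER2*, *GTF1* and *PET112*, the last of which is not one of the 36 genes. *HER2* read 8.31, 8.33 and 8.31 on the untreated arrays and 8.26, 8.19 and 8.07 on the neomycin arrays. The groups were close but apart (log2 fold change −0.14, SE 0.10, adjusted p = 0.602). *GTF1*, with 9.03, 8.98 and 9.03 on the untreated arrays and 8.96, 8.82 and 9.04 on the neomycin arrays, overlapped (log2 fold change −0.07, SE 0.10, adjusted p = 0.824). *PET112* overlapped too, with 7.05, 7.19 and 7.08 on the untreated arrays and 6.61, 7.10 and 6.83 on the neomycin arrays (log2 fold change −0.26, SE 0.14, adjusted p = 0.475). The change of *GTF1* minus that of *HER2* was 0.07 (SE 0.11, exact permutation test over the 6 arrays, 2-sided, p = 0.9).

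Of the cytosolic enzymes, *GLN4*, the glutaminyl-tRNA synthetase, had the smallest p. Its signals were 10.92, 10.97 and 11.17 on the untreated arrays and 10.75, 10.78 and 10.82 on the neomycin arrays. All treated cultures stood lower and close to each other, and the spread was in the untreated group (log2 fold change −0.23, SE 0.11, adjusted p = 0.393, 95% confidence interval −0.48 to 0.01). *FRS2*, the alpha subunit of the phenylalanyl-tRNA synthetase, was the other cytosolic gene without overlap, at 11.18, 11.16 and 11.12 on the untreated arrays and 10.96, 11.05 and 10.99 on the neomycin arrays (log2 fold change −0.15, SE 0.09, adjusted p = 0.53). Its partner *FRS1*, the beta subunit, read 11.78, 11.76 and 11.87 on the untreated arrays and 11.49, 11.85 and 11.68 on the neomycin arrays (log2 fold change −0.13, SE 0.12, adjusted p = 0.704), where treated replicate 2 lay among the untreated values. The changes of both subunits differed by 0.02, less than the error of that difference (SE 0.09, exact permutation p = 0.9).
*MES1* had 11.50, 11.37 and 11.64 on the untreated arrays and 11.09, 11.50 and 11.17 on the neomycin arrays. Treated replicates 1 and 3 were below all untreated arrays and replicate 2 in the middle of them (log2 fold change −0.25, SE 0.14, adjusted p = 0.478). *GUS1*, the glutamyl-tRNA synthetase, gave 12.55, 12.65 and 12.69 on the untreated arrays and 12.35, 12.69 and 12.58 on the neomycin arrays (log2 fold change −0.09, SE 0.12, adjusted p = 0.808), and *ARC1*, whose product binds both enzymes and helps them to take up their tRNAs, 11.87, 11.82 and 11.88 on the untreated arrays and 11.66, 11.94 and 11.77 on the neomycin arrays (log2 fold change −0.07, SE 0.11, adjusted p = 0.857). Both showed replicate 1 low and replicate 2 high. The signal of *ARC1* relative to *MES1* on the same array, set to a mean of 0 without drug, was 0.22, 0.10 and 0.25 with neomycin and at most 0.09 without. These groups touched without overlapping (difference 0.19, SE 0.08, exact permutation p = 0.1, the smallest that 3 arrays against 3 can give, and p = 0.6 adjusted over the 6 combinations of partners compared).
*GRS1*, the glycyl-tRNA synthetase, read 12.21, 12.23 and 12.28 on the untreated arrays and 12.07, 12.24 and 12.11 on the neomycin arrays (log2 fold change −0.10, SE 0.10, adjusted p = 0.715). *GRS2* is a second gene for this enzyme, and it read 7.58, 7.60 and 7.69 on the untreated arrays and 7.54, 7.72 and 7.45 on the neomycin arrays (log2 fold change −0.05, SE 0.11, adjusted p = 0.895). Whether their probe sets bind each other's transcripts was not tested. The changes of both genes differed by −0.05 (SE 0.05, exact permutation p = 0.4). *HTS1*, the histidyl-tRNA synthetase of both compartments, gave 11.34, 11.29 and 11.47 on the untreated arrays and 11.07, 11.42 and 11.25 on the neomycin arrays (log2 fold change −0.12, SE 0.12, adjusted p = 0.738). Replicate 2 was within the untreated range and replicates 1 and 3 under it.

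The other genes that encode both forms, *ALA1* and *VAS1* for alanine and valine, had log2 fold changes of −0.11 and −0.13. With *GRS1* and *HTS1* they gave a median of −0.12, and 0 of the 4 were lower on all neomycin arrays. The 14 cytosolic synthetase genes not counted as encoding both forms (without *GRS2*) had a close median, −0.11. Log2 fold changes of *CDC60* and *WRS1*, for leucine and tryptophan, were −0.12 and −0.12. Those of *THS1*, *SES1*, *DED81* and *ILS1*, for threonine, serine, asparagine and isoleucine, were −0.11, −0.10, −0.08 and −0.08. *TYS1* and *DPS1*, for tyrosine and aspartate, had −0.05 and −0.02. *KRS1* alone lay above 0 (with arrays centred or quantile-normalised *DPS1* did too, and without untreated replicate 1 *KRS1* did not), at 0.02. The confidence intervals of the 20 cytosolic members all contained 0 and lay between −0.57 and 0.25, so that a doubling or halving of any of them lay outside its interval. This was also true of the 16 mitochondrial members, whose intervals reached from −0.83 to 0.20.
By structural class, the 8 cytosolic enzymes of class I had a median of −0.12 and the 11 cytosolic genes of class II one of −0.10. For the mitochondrial synthetases the medians were −0.21 (7 genes of class I) and −0.25 (7 genes of class II).

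For 12 amino acids the members include separate cytosolic and mitochondrial genes, and with both subunits for phenylalanine these make 13 comparisons. In 12 of the 13 the mitochondrial gene had the lower fold change, the exception being methionine. Each comparison was made as the log2 ratio of both signals on the same array, with an exact permutation test over the 6 arrays, 2-sided. The ratio of *ILS1* to *ISM1*, for isoleucine, set to a mean of 0 on the untreated arrays, was 0.47, 0.40 and 0.31 with neomycin and 0.03, −0.02 and −0.01 without (difference 0.40, SE 0.05). That of *DPS1* to *MSD1*, for aspartate, was 0.07, 0.15 and 0.39 with neomycin and −0.03, 0.03 and −0.00 without (difference 0.20, SE 0.10). In these the treated arrays all lay above the untreated ones, for which the exact permutation test gives p = 0.1, its smallest value, and p = 0.433 adjusted over the 13 comparisons. The remaining 11 overlapped. Among genes simulated without a change, 10.4% had groups without overlap, in either direction. The ratio of *ILS1* to *ISM1* was uniform over the treated cultures although *ILS1* itself ranged widely over them.
Larger than the difference for aspartate, but with overlap, were 0.23 for asparagine (SE 0.18) and 0.23 for threonine (SE 0.13), both with an exact permutation p of 0.2. For tyrosine, tryptophan and lysine they were 0.02, 0.04 and 0.07. The ratio of *MES1* to *MSM1* varied most, with −0.44, 0.32 and −0.38 on the neomycin arrays. None of the 13 passed, and with 3 arrays against 3 none could.

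**Figure D4:**
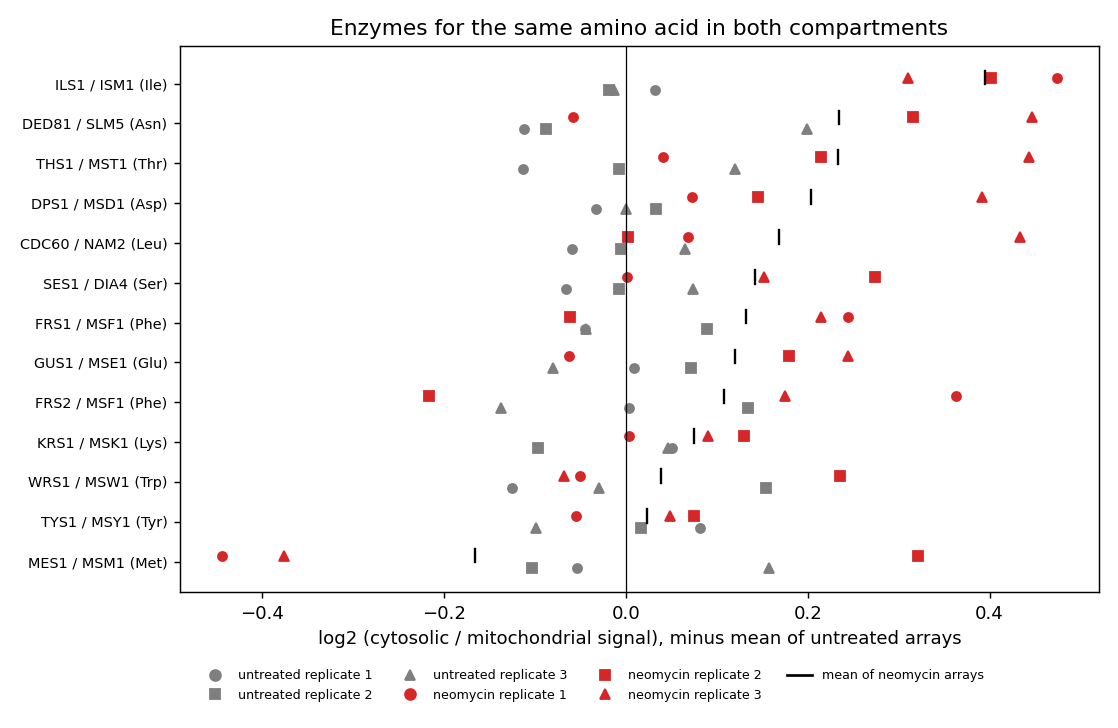
Log2 ratio of the cytosolic to the mitochondrial gene for the same amino acid on each array, minus its mean over the untreated arrays (x axis), for 13 combinations, with untreated arrays in grey, neomycin arrays in red and the mean of the neomycin arrays as a black line. The red symbols stand apart from the grey ones for *ILS1* with *ISM1* and for *DPS1* with *MSD1*, and those of *MES1* with *MSM1* spread from −0.44 to 0.32.

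Outside the 36, genes that charge tRNAs or act on tRNAs carrying an amino acid or peptide were measured for 7 of 8 that were looked up. The gene without a match in the annotation was YNL247W, for the cytosolic cysteinyl-tRNA synthetase. The cytosolic arginyl-tRNA and prolyl-tRNA synthetases, YDR341C and YHR020W, had log2 fold changes of −0.05 and −0.00. Of the 4 with the smallest p, *PTH1*, a peptidyl-tRNA hydrolase, had 0.33, *PET112* −0.26, *DTD1*, which removes D-amino acids from tRNAs, −0.21, and *FMT1*, the mitochondrial methionyl-tRNA formyltransferase, 0.19. The mean signal of *FMT1* in both groups and that of *PTH1* without drug (4.68) were no higher than the highest mean of deleted genes that BY4741 lacks (4.68). None of the 7 passed (smallest adjusted p = 0.375, limma), and 0 of 7 were separated in either direction.
Genes that process and modify transfer RNAs were looked up as the other part of this pathway. Those listed for the nucleus and cytosol were not sorted by whether they also serve mitochondria. Of 57 measured genes for the nucleus and cytosol, 0 passed the adjusted test, 20 were lower and 0 higher with an unadjusted p below 0.05 (35.1% against 8.33% of all genes), and 23 were lower on all neomycin arrays (40.4% against 12.8%). Their median was −0.23, near the −0.22 of the mitochondrial charging genes. Neomycin replicates 1, 2 and 3 had medians over the 57 of −0.25, −0.25 and −0.14. These genes were thus low on replicate 2, where the cytosolic charging genes were high. With each array centred on its median, 22 of the 57 were lower on all neomycin arrays, against 9.43% of all genes. Those lower with an unadjusted p below 0.05 fell to 11 when untreated replicate 1 was omitted and to 8 when untreated replicate 3 was, with 0 adjusted calls. The smallest p was that of *GCD10*, a subunit of the enzyme that methylates an adenosine of tRNAs, which read 10.01, 10.02 and 10.18 on the untreated arrays and 9.70, 9.57 and 9.74 on the neomycin arrays (log2 fold change −0.40, SE 0.10, adjusted p = 0.181). It was followed by *RPP1*, a subunit of ribonuclease P (−0.43), *DUS1*, a dihydrouridine synthase (−0.54), and *PUS7*, a pseudouridine synthase (−0.35).
Of the mitochondrial tRNA genes of this kind, *SLM3*, a thiouridylase, *MTO1*, which acts in the modification of the wobble base, and *RPM2*, the protein of mitochondrial ribonuclease P, had −0.31, −0.37 and −0.27 and were lower on all neomycin arrays. *MSS1*, the partner of *MTO1*, had −0.10 and overlapped. Only these 4 genes of this kind were looked up, and 12.8% of all genes were lower on all neomycin arrays. Adjusted p-values of the 4 began at 0.274 (limma).

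No single array made a member pass the adjusted test when it was left out, but neomycin replicate 2 set the number of genes without overlap. Without it 13 of the 20 cytosolic and 12 of the 16 mitochondrial members were lower on both remaining neomycin arrays than on all untreated arrays, where 27.5% of all genes were. The mean signals over the arrays of the deleted genes *LEU2*, *MET17* and *URA3* were at most 4.68 (*HIS3*, which the strain lacks only in part, read 10.3 without and 10.5 with neomycin), and 0 of the 36 members had a mean under that.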

How the data were processed

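The data are 6 Affymetrix arrays, 1 per culture. The authors converted the scans with GCRMA (version not given in the sources read here) and deposited log2 signals per probe set, from 2.22 to 14.3, so that background adjustment and normalisation were not repeated. The medians of the arrays ran from 8.84 to 8.93. Of 5716 probe sets 5498 name a gene, and the one with the highest mean was taken for the 47 genes with several. Arrays give no counting depth, and their number, 3 per group, limits the precision. The comparison was fitted over 5449 genes in R 4.3.3 by limma 3.58.1 (functions lmFit and eBayes, prior degrees of freedom 4.03, 2-sided tests, Benjamini-Hochberg adjustment). Standard errors of single genes are limma's, and those of differences between genes come from the 6 arrays. The Bayesian p was rebuilt after Cyber-T with a window of 101 genes and a confidence of 10, settings that the methods do not state. Of the 71 names of other tRNA genes looked up, 4 were matched to the annotation through RefSeq names, and genes without a match were not analysed here.

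The fit was tested on simulated data, in which genes varied independently of each other. Of 100 genes changed by 1 on the log2 scale it called 92, of 100 changed by 2 it called 97, and 11 unchanged genes were called. Changes as small as those of the members were not simulated, so the test does not show how often they would be called. The members, lists and tests were chosen with earlier results of these data known. Values on each array are given for the 6 genes of each compartment with the smallest p and for sets of partner genes, and up to 4 genes of each other list are named by the smallest p. The alternatives were a replicate block, other scalings, a filter on dim genes, the mean of probe sets, other settings of limma and leaving out each array.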

Additional observations from a re-analysis of the deposited data

How the results depend on the processing

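Under all alternatives 0 members passed the adjusted test, 0 passed the ratio criteria and 0 were higher on all neomycin arrays, also at an adjusted p under 0.1 and with the replicate number as a block (replicate block, smallest adjusted p of a member 0.313). The labels give the arrays of both groups the same replicate numbers. The methods name no pairing of treated with untreated cultures, and the numbers were not taken as pairs. Deviations of arrays with the same number correlated by −0.000302, −0.376 and 0.443 across genes. Arrays with different numbers were not compared in this way, so these values do not decide whether the cultures were paired. Over all genes the block left 0 calls in place of 28. The 10 members lower on all neomycin arrays ranged from 10 to 25 when an array was left out, 25 without neomycin replicate 2. The share over all genes rose too, from 12.8% to between 15.8% and 27.5%, the last without neomycin replicate 2. After quantile normalisation 4 cytosolic and 4 mitochondrial members were lower on all neomycin arrays, in place of 2 and 8. The median change ranged from −0.18 to −0.03 for the cytosolic and from −0.29 to −0.18 for the mitochondrial members when an array was left out, and the cytosolic value closest to 0 was that without neomycin replicate 1. Of 392 values of single members under the alternatives 380 kept their direction. *DPS1* went to 0.0247 after quantile normalisation and to 0.0165 with centred arrays. When an array was left out its values ran from −0.0602 to 0.0422, those of *KRS1* from −0.0267 to 0.0489, of *MSK1* from −0.127 to 0.0207, of *ILS1* from −0.199 to 0.0495, of *THS1* from −0.242 to 0.0122, of *TYS1* from −0.102 to 0.0103, of *GUS1* from −0.165 to 0.00318, of *MSM1* from −0.15 to 0.0354 and of *GRS2* from −0.127 to 0.0126, none of them called.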
